A study of Homo sapiens with 10 samples.

Results

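Messenger RNA levels of 40 genes of glycolysis and the hypoxia response are described here in HEK293T cells that received no cysteine, the usual amount or an excess of it. The 40 genes are known members of the pathways and were chosen by name, with earlier results of these data known. All 40 were found by symbol among the 78894 gene identifiers of the deposited table. Of the 40, 39 were among the 29045 genes with enough reads to be tested. The 40 genes were divided by function into 2 glucose transporters, 17 glycolytic enzymes, 4 regulators of glycolysis, 14 targets of hypoxia-inducible factor (HIF) that lie outside sugar metabolism, and the 3 HIF subunits themselves.

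HEK293T is a human embryonic kidney line that carries the SV40 large T antigen. All cells were first plated in a medium with the usual cysteine and, a day later, were given medium without L-cysteine (0X-Cys, 2 libraries, called cysteine-free), with the usual amount (1X-Cys, 4 libraries, called complete) or with 10 times that amount (10X-Cys, 4 libraries, called excess). Poly(A) RNA was collected after 24 h, a single time point, from this 1 line, and the labels call the libraries of a medium biological replicates. The base medium was made without cysteine and methionine, and methionine, pyruvate and non-essential amino acids were added back in all 3 media. The study's text gives another number of replicates for this experiment without naming the libraries, so all the labelled libraries were used.

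Glycolysis splits glucose into pyruvate, and lactate dehydrogenase then turns pyruvate into lactate, so that the pathway can run without oxygen. HIF is a pair of proteins, an oxygen-sensitive alpha subunit and the stable partner ARNT. With oxygen present, prolyl hydroxylases of the EGLN family mark the alpha subunit for destruction by the VHL ubiquitin ligase; without it, the pair binds DNA and raises the transcription of glucose transporters, nearly every glycolytic enzyme, the growth factor VEGFA and many other genes. In kidney cells that lose VHL the same genes are known to be high in normal oxygen. Here, the mRNA was measured, which gives the level of the HIF transcripts but not of the HIF proteins.

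The libraries held between 34836014 and 61654861 reads on genes, recovered from the deposited values. These totals are above the average per sample that the labels state, and whether mates were counted more than once is not given in the sources used here. The paper's methods leave out reads on several genes. Yet genes that overlap the glycolytic enzyme genes ALDOA and LDHB had 96.7% and 96.0% of their levels. Whether overlapping genes hold the same reads was not tested. Of the reads, mitochondrial genes took 5.15% and 5.71% in the cysteine-free libraries and 4.51% to 5.05% in the complete libraries, but 0.117% to 0.146% in the excess libraries. Of the 10 kidney and neuronal genes that HEK293 cells are known to express, all 10 were detected, with vimentin at 28292 ± 2683 normalized counts (SD, n = 4) in complete medium, while marker genes of other cell types were at or near 0 apart from the collagen COL1A1 at 911 ± 76.5 (SD, n = 4). In a bulk sample, fewer cells of a type and less RNA per cell cannot be told apart.

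Carbonic anhydrase 9 (CA9), a membrane enzyme widely used as a marker of hypoxic tissue, had 0 reads in each of the 10 libraries. A count of 0 allows up to 3 reads per library, so the gene was not detectable at this depth, and it was not tested. All other members were expressed. Below, a mean is followed by its SD over the libraries of a medium, with n = 2 for cysteine-free and n = 4 for complete and excess medium. The enzymes of the lower part of glycolysis stood highest in complete medium, on the scale of normalized counts per kilobase of exon. This scale allows a rough comparison between genes. The length is that of all annotated exons, such as 2396 bases for GAPDH and 8926 for PFKL, whether or not these cells use them. GAPDH, the glyceraldehyde phosphate dehydrogenase, had a level of 28505 ± 1303 per kilobase (SD, n = 4). ENO1, an enolase, followed at a level of 13643 ± 516 per kilobase and LDHB, a lactate dehydrogenase subunit, at 11391 ± 510.1 (SD, n = 4 for each). The enzymes that begin the pathway were far lower. The hexokinases HK1 and HK2 had levels of 906 ± 40.6 and 882 ± 92.5 per kilobase, which differed by less than the spread between libraries, and the 3 phosphofructokinase genes PFKP, PFKL and PFKM lay at 653 ± 37.1, 617 ± 33.2 and 555 ± 14.8 (SD, n = 4 for each). Of the HIF subunits, HIF1A was highest with a level of 746 ± 32.7 per kilobase, above ARNT at 393 ± 14.9 and EPAS1 at 145 ± 6.84 (SD, n = 4 for each). The neuronal-type glucose transporter SLC2A3 was the lowest detected member, with 27.4 ± 6.83 per kilobase against 353 ± 39.97 for the common transporter SLC2A1 (SD, n = 4 for each).

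The first comparison asks what the RNA of these genes did when cysteine was taken away. Enzymes of glycolysis fell by moderate amounts, led by PGAM1 and LDHA, whereas VEGFA, the transcriptional repressor BHLHE40 and SLC2A3 rose. Of the 39 members tested, 16 passed the test (limma, adjusted p of 0.01 or less over all genes tested), 4 higher and 12 lower in cysteine-free than in complete medium, against 15.9% of all genes (7.39% higher and 8.51% lower). Among the 17 enzymes, 1 rose and 9 fell, with a median log2 fold change of -0.24, against 0.00 for all genes. Of the 13 non-metabolic HIF targets tested, 2 rose and 1 fell, and their median was 0.05. The libraries of the cysteine-free and complete media did not overlap in 7 members that were higher and 19 that were lower, while 23.3% and 23.6% of all genes showed such a gap in either direction. With only 2 cysteine-free libraries the number of calls depended on single libraries: without cysteine-free replicate 1, 6 members passed, without cysteine-free replicate 2, 5 passed, and without complete replicate 2, 10 passed.

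The second comparison, excess against complete medium, separated the enzymes from the other HIF targets. Of the 39 members tested, 31 passed, 12 higher and 19 lower in excess, in a comparison where 46% of all genes passed (23.1% higher and 22.9% lower). Of the 17 enzymes, 14 fell and 2 rose, and their median was -0.60 on the log2 scale. Of the 13 non-metabolic HIF targets tested, 9 rose and 0 fell, with a median of 0.27, whereas the median of all genes was 0.01. None of these targets was called lower by limma, edgeR or DESeq2, and at an unadjusted p under 0.05 there was 1, EGLN3. The excess libraries did not overlap the complete ones in 14 members that were higher and 20 that were lower, against 26.1% and 25.5% of all genes. When libraries were scaled to equal totals instead, the median of all genes moved to 0.12, the share of called genes that were higher went from 50.3% to 61.8%, and 29 members passed, 16 higher and 13 lower. The medians then became -0.50 for the enzymes and 0.37 for the targets. The 13 mitochondrial mRNAs all fell in excess medium (median -7.23 on the log2 scale), and their part in these results was not tested. Both comparisons use the same 4 complete libraries, so agreement between them is not independent, and each is given by its own values.

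**Figure D1:**
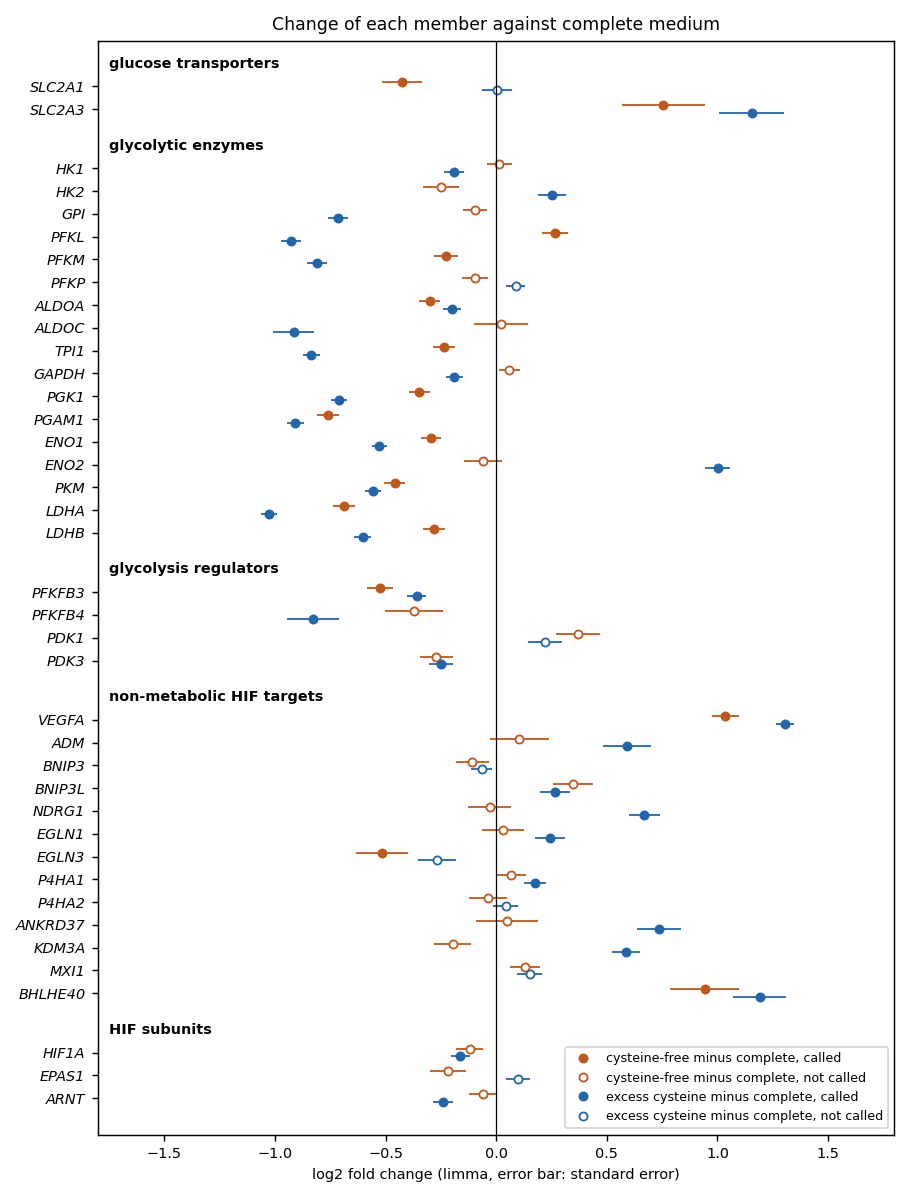
Log2 fold change (x axis, points, with the standard error as bar) of the 39 members tested, by group of genes, for cysteine-free minus complete medium (orange) and excess minus complete medium (blue). Filled points passed the test. Most enzymes lie left of 0, with LDHA at -1.03 in excess, and VEGFA and BHLHE40 lie right of 0 in both media.

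Glucose enters cells through SLC2A1 (GLUT1) and SLC2A3 (GLUT3), which did not move together. The low-abundance SLC2A3 (ENSG00000059804, chr12:7919230-8019007, minus strand) had normalized counts of 362 and 299 in the cysteine-free libraries, 188, 156, 270.0 and 181 in the complete libraries, and 424, 543, 425 and 365 in the excess libraries. Every library of either altered medium lay above every complete library, although complete replicate 3 came close to cysteine-free replicate 2. The log2 fold change was 0.76 ± 0.19 (SE, limma adjusted p = 8.7e-03) in cysteine-free medium and 1.16 ± 0.15 (SE, limma adjusted p = 3.6e-06) in excess medium. The call in cysteine-free medium was lost without any one of cysteine-free replicate 1 or 2 or complete replicate 1 or 2, where the adjusted p was 0.15, 0.048, 0.034 and 0.032 in that order. The 2 annotated copies that were counted, the near-identical SLC2A14 and a pseudogene, together had reads equal to 11.2% of those of SLC2A3. No direction changed when their counts were added to those of SLC2A3. SLC2A1 fell in cysteine-free medium, to 1729 ± 30.5 (SD, n = 2) from 2336 ± 264 (SD, n = 4), a log2 fold change of -0.43 ± 0.090 (SE, limma adjusted p = 3.2e-03), and the same 4 libraries decided this call (adjusted p of 0.058, 0.046, 0.010 and 0.017 without them in the same order). In excess medium it stood at 2333 ± 105 (SD, n = 4) and was not called.

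Phosphofructokinase makes the committed step of glycolysis from 3 genes, and these did not move together. PFKL, the liver-type subunit (ENSG00000141959, chr21:44300051-44327376, plus strand), had normalized counts of 6697 and 6550 in the cysteine-free libraries, 5296, 5255, 5890.2 and 5599 in the complete libraries, and 2941, 2799, 2944 and 2892 in the excess libraries. The 3 media did not overlap, with cysteine-free highest and excess lowest. The log2 fold change was 0.27 ± 0.058 (SE, limma adjusted p = 4.0e-03) in cysteine-free medium and -0.93 ± 0.045 (SE, limma adjusted p = 2.7e-11) in excess. PFKL was the only enzyme called higher in cysteine-free medium, and that call was lost with either cysteine-free library left out (limma adjusted p of 0.069 without replicate 1 and 0.049 without replicate 2) and without complete replicate 1 or 2 (0.014 and 0.019). PFKM, the muscle-type subunit (ENSG00000152556, chr12:48105139-48146404, plus strand), had 3443 and 3438 in the cysteine-free libraries, 3936, 3978, 4179 and 3999.7 in the complete libraries, and 2167, 2409, 2289 and 2309 in the excess libraries. Here complete medium was highest and excess again lowest, with no overlap between the media. PFKM fell by 0.23 ± 0.055 on the log2 scale (SE) in cysteine-free medium, with a limma adjusted p of 7.5e-03 that rose to 0.013 without the filter on low counts and to 0.012 with equal totals, and by 0.81 ± 0.045 in excess (SE, limma adjusted p = 1.4e-10). The call in cysteine-free medium was also lost without cysteine-free replicate 1 or 2 (0.074 and 0.081) or complete replicate 1 or 2 (0.013 and 0.022). PFKP, the platelet-type subunit, had means of 4742 ± 39.9, 5074 ± 289 and 5385 ± 122 in cysteine-free, complete and excess medium and was called in neither comparison with complete medium.

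The steps before phosphofructokinase changed mainly in excess medium. HK1, the housekeeping hexokinase, went from 6227 ± 279 normalized counts in complete to 5455 ± 262 in excess medium, a log2 fold change of -0.19 ± 0.045 (SE, limma adjusted p = 1.6e-03), a call that was lost with equal totals (-0.09, adjusted p = 0.082). HK2, the hexokinase that hypoxia is known to raise, went the other way, from 5222 ± 547 to 6190 ± 315 (SD, n = 4 each), a log2 fold change of 0.25 ± 0.063 (SE, limma adjusted p = 2.8e-03). This call was lost without excess replicate 3 or 4 (limma adjusted p = 0.014 and 0.010). Glucose phosphate isomerase, GPI, fell from 14421 ± 827 to 8772 ± 361, a log2 fold change of -0.72 ± 0.044 (SE, limma adjusted p = 4.8e-10). None of these 3 genes passed the test in cysteine-free medium, where they had means of 6285 ± 34.1, 4367 ± 36.3 and 13479 ± 6.39.

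Aldolase cuts the phosphorylated sugar into smaller pieces. The main form, ALDOA, was lower in both media, at 27137 ± 138 normalized counts in cysteine-free and 29135 ± 1543 in excess against 33476 ± 1579.6 in complete medium, with log2 fold changes of -0.30 ± 0.049 (SE, limma adjusted p = 5.6e-04) and -0.20 ± 0.042 (SE, limma adjusted p = 5.6e-04). The second of these calls was lost with equal totals (-0.095, adjusted p = 0.020). ALDOA shares 54.2% of its exon bases with other annotated genes, 1 of which had 96.7% of its level, so its own level is uncertain. The brain-type form ALDOC (ENSG00000109107, chr17:28573115-28576948, minus strand) had 433 and 507 in the cysteine-free libraries, 538, 399, 456 and 464 in the complete libraries, and 240.1, 245, 248 and 244 in the excess libraries. The excess libraries lay below all others and the cysteine-free libraries lay among the complete ones. In excess the log2 fold change was -0.92 ± 0.091 (SE, limma adjusted p = 2.0e-07). Triose phosphate isomerase TPI1 (ENSG00000111669, chr12:6867119-6870948, plus strand), which turns the products of aldolase into each other, had 23313 and 23156 in the cysteine-free libraries, 29096, 26615, 27503 and 26302 in the complete libraries, and 15127, 14625, 15962 and 15591 in the excess libraries. Each medium kept to its own range, complete highest and excess lowest. TPI1 fell by 0.24 ± 0.049 on the log2 scale in cysteine-free medium (SE, limma adjusted p = 3.0e-03; 0.048 without cysteine-free replicate 1, 0.060 without replicate 2 and 0.010, just over the threshold, without complete replicate 2) and by 0.84 ± 0.039 in excess (SE, limma adjusted p = 1.9e-11).

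Among the enzymes, PGAM1 fell most in cysteine-free medium and LDHA, which acts on the pyruvate that glycolysis makes, fell most in excess. PGAM1, a phosphoglycerate mutase (ENSG00000171314, chr10:97426191-97433444, plus strand), had 13171 and 13430.3 normalized counts in the cysteine-free libraries, 23997, 21607, 22790.4 and 21810.3 in the complete libraries, and 11801, 12081, 12378 and 11760.3 in the excess libraries. Both altered media lay far below complete medium, and the excess libraries were all below the cysteine-free ones. PGAM1 differed from complete medium by -0.76 ± 0.051 on the log2 scale in cysteine-free medium (SE, limma adjusted p = 5.0e-07), and by -0.91 ± 0.038 in excess (SE, limma adjusted p = 4.7e-12). LDHA, the lactate dehydrogenase subunit that is a classical HIF target (ENSG00000134333, chr11:18394560-18408425, plus strand), had 15013 and 15641 in the cysteine-free libraries, 26178, 24639.9, 24046 and 23930.4 in the complete libraries, and 12357, 12208, 11869 and 11943 in the excess libraries. Its order was the same as that of PGAM1, without overlap. LDHA stood at 62.1% of its complete level in cysteine-free medium (log2 fold change -0.69 ± 0.050, SE, limma adjusted p = 8.9e-07) and at 49.0% in excess (-1.03 ± 0.036, SE, limma adjusted p = 4.8e-13).

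PGK1, ENO1, PKM and LDHB fell less. In cysteine-free medium, PGK1, phosphoglycerate kinase, had a log2 fold change of -0.35, ENO1 one of -0.30, the pyruvate kinase PKM one of -0.46 and LDHB one of -0.28, with limma adjusted p between 1.9e-05 and 8.2e-04. In excess medium the same quantity was -0.71, -0.53, -0.56 and -0.60, with limma adjusted p between 4.5e-11 and 1.3e-09. Leaving out a cysteine-free library ended the calls of ENO1, LDHB and ALDOA in that medium (limma adjusted p of 0.021, 0.026 and 0.020 without replicate 1, and of 0.014, 0.027 and 0.024 without replicate 2), and leaving out replicate 2 that of PGK1 (0.014). LDHB shares 33.4% of its exon bases with a gene that had 96.0% of its level. GAPDH, often used as a reference gene, had 71131 ± 291, 68299 ± 3121 and 59900 ± 2604 normalized counts in cysteine-free, complete and excess medium; it was called only in excess (log2 fold change -0.19 ± 0.038, SE, limma adjusted p = 4.6e-04), and not with equal totals (-0.08, adjusted p = 0.021).

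One enolase ran against the enzymes around it. ENO2, the neuronal form (ENSG00000111674, chr12:6913745-6923698, plus strand), had 719.8 and 693 normalized counts in the cysteine-free libraries, 712, 696, 772 and 766 in the complete libraries, and 1506, 1414, 1502 and 1475 in the excess libraries. The excess libraries stood far above the rest, while cysteine-free and complete libraries overlapped. In excess the log2 fold change was 1.00 ± 0.057 (SE, limma adjusted p = 1.9e-10), and ENO2 was with HK2 the only enzyme called higher there.

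HIF binds DNA at a short core, ACGTG or GCGTG. Promoter sequence is shown for those of the enzymes that moved most that held this core before a start, so each sequence holds it by choice. The 30 bases below hold the core nearest upstream of a RefSeq start (build GRCh38.p14), read 5′ to 3′ on the strand of the gene, with the core in capitals. CACGT is ACGTG read from the other strand, and a CACGTG E-box, which other factors bind, would count as a match on both strands.
PFKL (chr21:44299876-44299905, plus strand, core 159 bases before the start): ctgctcagggcccGCGTGacattgcacagg
PFKM (chr12:48105346-48105375, plus strand, 117 bases before the start): tagatccagagatCACGTtagggtacacca
ALDOC (chr17:28576907-28576936, minus strand, 23 bases before the start): cccccggaggagtCACGTagctctgcgaca
TPI1 (chr12:6868075-6868104, plus strand, 12 bases before the start): ccgtgcgccgccgCACGTagccccagactc
ENO2 (chr12:6914449-6914478, plus strand, 113 bases before the start): cacccgcgctcgtACGTGcgcctccgccgg
LDHA (chr11:18394477-18394506, plus strand, 68 bases before the start): ACGTGggttcccgCACGTccgccggccccc
The LDHA promoter held 6 cores in the 250 bases before and 50 after its start, ALDOC held 5, and the TPI1 promoter shown held 2. The PGAM1 window held none, which says only that these letters are not in that window. Genes that fell (LDHA, TPI1) and a gene that rose (ENO2) in excess medium both had the core in their promoters. Over all 37 enzyme windows in the table, 23 held a core on either strand (62.2%), against 48.4% of the 35116 promoter windows of all genes. The 37 windows belong to 17 genes and some overlap, so they are not independent and the share is not one of genes. A match is a description of the letters and not a shown binding site.

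Of the 4 regulators of glycolysis, limma called 1 lower in cysteine-free and 3 lower in excess medium, and none higher in either. Of all genes, 8.51% were called lower and 7.39% higher in cysteine-free medium, and 22.9% lower and 23.1% higher in excess. PFKFB3 and PFKFB4 make and break fructose 2,6-bisphosphate, the activator of phosphofructokinase, and PDK1 and PDK3 are kinases that close pyruvate dehydrogenase and so keep pyruvate out of the mitochondria. PFKFB4 (ENSG00000114268, chr3:48517684-48562015, minus strand) had 308 and 309 normalized counts in the cysteine-free libraries, 387, 420.0, 333 and 466 in the complete libraries, and 254, 253, 191 and 205 in the excess libraries. The excess libraries were lowest and did not overlap the others. Its log2 fold change in excess was -0.83 ± 0.12 (SE, limma adjusted p = 1.3e-05), and its fall in cysteine-free medium did not pass (limma adjusted p = 0.049). The 30 bases with the core nearest upstream of its start are these.
PFKFB4 (chr3:48556953-48556982, minus strand, core 161 bases before the start): gtgagttgggcatGCGTGgtcggaggccgg
PFKFB3 was lower in both media, at 1968 ± 31.2 in cysteine-free and 2206 ± 50.2 in excess against 2831 ± 77.7 in complete medium, with log2 fold changes of -0.52 ± 0.059 (SE, limma adjusted p = 3.6e-05) and -0.36 ± 0.043 (SE, limma adjusted p = 2.0e-06). PDK3 fell in excess, from 2421 ± 169 to 2033 ± 69.1 (log2 fold change -0.25 ± 0.054, SE, limma adjusted p = 7.7e-04), and not with equal totals (adjusted p = 0.030). PDK1, a HIF target, had means of 1406 ± 71.1, 1094 ± 134 and 1268 ± 67.4 in cysteine-free, complete and excess medium and was not called by limma, with adjusted p between 0.014 and 0.039 over the 3 comparisons. In cysteine-free against complete medium, where limma gave 0.014, edgeR (adjusted p = 0.00999) and DESeq2 (0.0035) called it higher.

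The HIF targets outside sugar metabolism are secreted factors, mitophagy receptors, hydroxylases and transcriptional repressors. VEGFA, the secreted growth factor for blood vessels (ENSG00000112715, chr6:43770184-43786487, plus strand), had normalized counts of 5529.5 and 5828 in the cysteine-free libraries, 2657, 2872, 2695 and 2851 in the complete libraries, and 6906, 6575, 6898 and 6981 in the excess libraries. The lowest cysteine-free library lay far above the highest complete one, and every excess library above both. VEGFA was 2.05-fold higher in cysteine-free medium (log2 fold change 1.04 ± 0.059, SE, limma adjusted p = 1.0e-07) and 2.47-fold higher in excess (1.30 ± 0.042, SE, limma adjusted p = 1.5e-13), and it stayed called with any single library left out. It rose most among the members in either medium.

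BHLHE40 (DEC1), a repressor of the circadian clock and of lipid genes (ENSG00000134107, chr3:4979437-4985323, plus strand), had 1060.3 and 1008 in the cysteine-free libraries, 563, 523, 699.5 and 405 in the complete libraries, and 1266, 1139.7, 1396 and 1128 in the excess libraries. Neither altered medium overlapped complete medium, whose own libraries were widely spread. BHLHE40 rose by 0.94 ± 0.16 on the log2 scale in cysteine-free medium (SE, limma adjusted p = 6.2e-04; 0.026 and 0.020 without cysteine-free replicate 1 or 2) and 1.19 ± 0.12 in excess (SE, limma adjusted p = 2.5e-07). Its promoter window held 4 cores, and the one nearest upstream of the start is shown.
BHLHE40 (chr3:4979275-4979304, plus strand, core 144 bases before the start): tcacagggtagaaCACGTagctccaaccca
Of the 14 windows of the 11 targets matched to the RefSeq table, 11 held a core (78.6%), against 48.4% of the windows of all genes. VEGFA, NDRG1 and BNIP3L were not matched.

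Another 7 of these targets rose in excess medium by less than 1 on the log2 scale. KDM3A, a histone demethylase, went from 1845 ± 173 to 2765 ± 128 (log2 fold change 0.59), NDRG1, a stress-induced cytoplasmic protein, from 3134 ± 413 to 4953 ± 105 (0.67), and ADM, the vasodilator peptide adrenomedullin, from 334 ± 50.4 to 502 ± 59.9 (0.59), with limma adjusted p of 4.2e-07, 3.3e-07 and 1.6e-04. No excess library of these 3 genes overlapped a complete one. ANKRD37 went from 209 ± 22.9 to 348 ± 29.0 (log2 fold change 0.73, limma adjusted p = 8.1e-06), but 40.3% of its exon bases lie in exons of UFSP2 on the other strand, a gene with 350.6% of its level. Smaller log2 fold changes were found for BNIP3L, a mitophagy receptor (0.27), EGLN1, the main HIF prolyl hydroxylase (0.24), and P4HA1, a collagen prolyl hydroxylase (0.18), with limma adjusted p between 3.4e-03 and 6.6e-03. Each of these last 3 calls hung on single libraries. BNIP3L lost its call without complete replicate 2 or excess replicate 2 or 3 (limma adjusted p up to 0.016), EGLN1 without complete replicate 2 or 4 or any 1 excess library (up to 0.020), and P4HA1 without complete replicate 1, 2 or 4 or excess replicate 2 or 3 (up to 0.030). BNIP3L shares 7.95% of its exon bases with PNMA2 on the other strand, a gene with 101.1% of its level. PNMA2 had means of 957 in complete and 1320 in excess medium. EGLN1 shares 55.8% of its exon bases with a gene that had 85.8% of its level. The part of shared reads in these changes was not tested. None of the 7 was called by limma in cysteine-free medium, where BNIP3L was close to the threshold (limma adjusted p = 0.011) and was called higher by edgeR (0.0075) and DESeq2 (0.0025).

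EGLN3, the hydroxylase of the family that hypoxia is known to raise most, was lower. It had 225 ± 15.2 normalized counts in cysteine-free (SD, n = 2), 322 ± 18.9 in complete and 267 ± 19.7 in excess medium (SD, n = 4 each). It fell by 0.52 ± 0.12 on the log2 scale in cysteine-free medium (SE, limma adjusted p = 5.4e-03), and in excess the gene was not called (limma adjusted p = 0.016). The call in cysteine-free medium was lost without cysteine-free replicate 1 or 2 (0.081 and 0.034) or complete replicate 1 or 2 (0.022 and 0.018). The mitophagy receptor BNIP3, the collagen hydroxylase P4HA2 and the MYC antagonist MXI1 passed the test in none of the 3 comparisons.

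The HIF subunits changed little. HIF1A, the main oxygen-sensitive subunit (ENSG00000100644, chr14:61695513-61748259, plus strand), had 3482 and 3579 normalized counts in the cysteine-free libraries, 3869, 4049, 3808 and 3641 in the complete libraries, and 3386, 3499, 3346 and 3489 in the excess libraries. All 6 libraries of the altered media lay below the lowest complete library, by a small margin. The log2 fold change in excess was -0.16 ± 0.043 (SE, limma adjusted p = 4.0e-03), which was lost with equal totals (-0.06, adjusted p = 0.23) and without complete replicate 1 or 2 or excess replicate 1 or 3, where the adjusted p lay between 0.010 and 0.019. In cysteine-free medium it was not called (limma adjusted p = 0.15).

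ARNT, the stable partner (ENSG00000143437, chr1:150809713-150876708, minus strand), had 2325 and 2539.9 in the cysteine-free libraries, 2618, 2536, 2398 and 2582 in the complete libraries, and 2149.8, 2127, 2191 and 2104 in the excess libraries. The excess libraries lay below all others. ARNT fell in excess by 0.24 ± 0.045 on the log2 scale (SE, limma adjusted p = 2.2e-04; 0.015 with equal totals). EPAS1, which encodes HIF-2 alpha (ENSG00000116016, chr2:46293667-46386697, plus strand), had 965 and 858 in the cysteine-free libraries, 1099, 1013, 1022 and 1108 in the complete libraries, and 1111, 1129, 1179 and 1125 in the excess libraries. The cysteine-free libraries were lowest and the excess libraries highest, yet neither comparison with complete medium passed the test (limma adjusted p of 0.061 and 0.13).

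**Figure D2:**
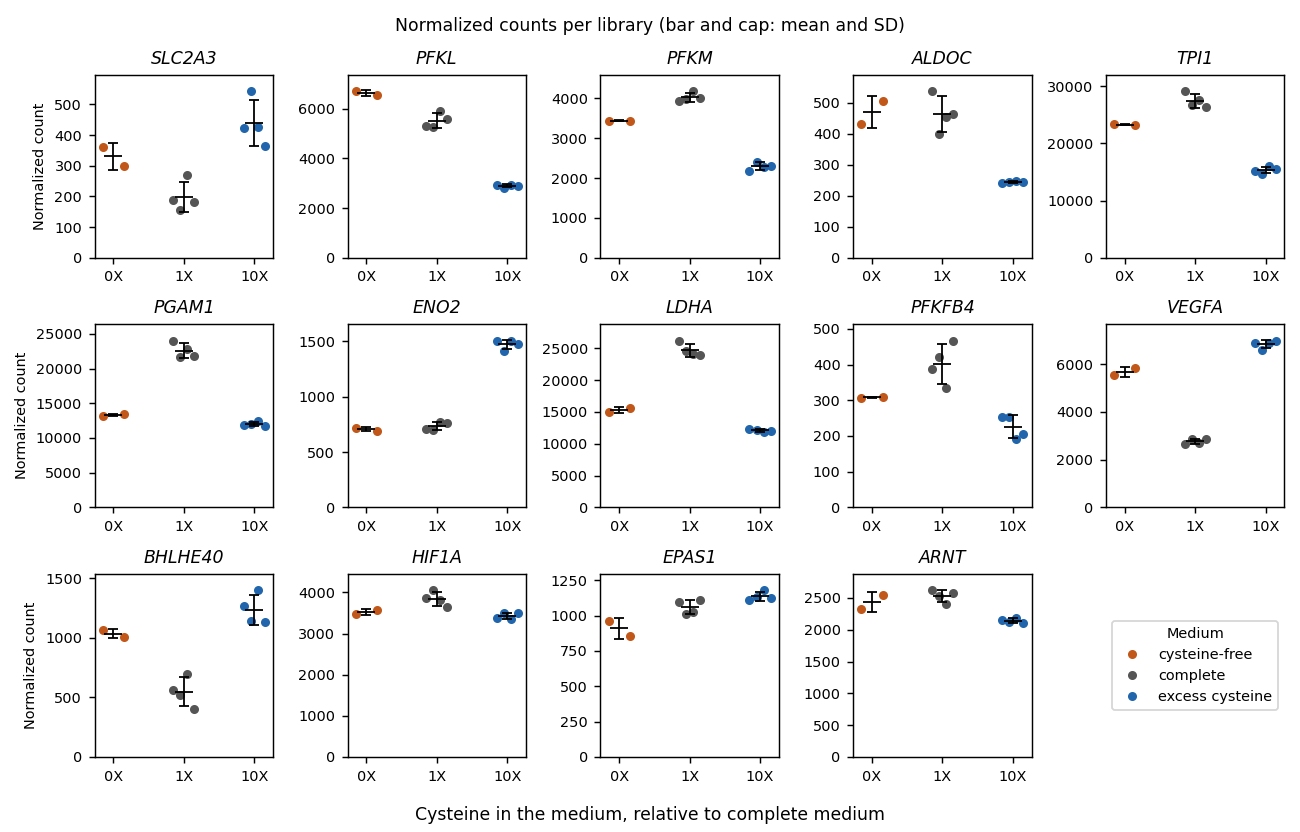
Normalized counts (y axis, from 0) of 14 members in each library by medium (x axis: 0X cysteine-free, 1X complete, 10X excess), with the mean and SD of each medium in black. LDHA and PGAM1 fall from the complete to both altered media, VEGFA and BHLHE40 rise in both, ENO2 rises only at 10X, PFKL goes up at 0X and down at 10X, and the HIF subunits stay near their complete level.

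Related forms of the same enzyme can be set against each other within a library, which removes the scaling between libraries. The log2 ratio of the per-kilobase levels was taken for 12 pairs of related members and compared by a two-sided exact permutation test over libraries, whose smallest p is 0.029 for 4 against 4 libraries and 0.067 for 2 against 4, with p adjusted over the 12 pairs. In excess medium the ratio of ENO2 to ENO1 rose the most, from -6.31 ± 0.089 to -4.78 ± 0.076 (SD, n = 4 each), a difference of 1.53 (exact p = 0.029, adjusted 0.038). The ratio of PFKP to PFKL rose from 0.08 to 1.095, that of HK2 to HK1 from -0.04 to 0.40, and that of ALDOC to ALDOA fell from -5.63 to -6.35, each with the same exact p. These ratios show unequal change between forms and not which form moved.

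The balance of the lactate dehydrogenase subunits was lower in LDHA in both altered media. The log2 ratio of LDHA to LDHB was -1.47 in complete medium, -1.88 in cysteine-free medium (difference -0.41, exact p = 0.067, the smallest possible) and -1.90 in excess (difference -0.42, exact p = 0.029, adjusted 0.038). The cysteine-free and excess ratios themselves differed by 0.02 (exact p = 0.67), with overlapping libraries. The ratio of SLC2A3 to SLC2A1 was -3.71 in complete medium, -2.53 in cysteine-free medium (exact p = 0.067, the smallest possible) and -2.56 in excess (exact p = 0.029, adjusted 0.038). In both of these pairs the cysteine-free libraries did not overlap the complete ones (exact p adjusted 0.089 for each). Most of the 12 pairs showed such a gap in that comparison.

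**Figure D3:**
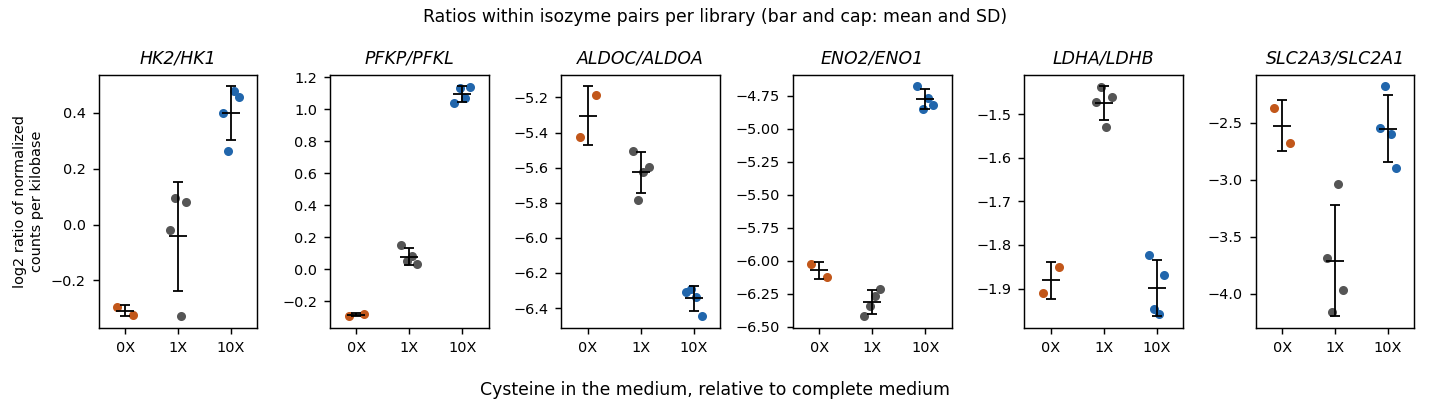
Log2 ratio of normalized counts per kilobase (y axis, a different range in each panel) within 6 pairs of related genes, for each library by medium (x axis), with mean and SD in black. ENO2 to ENO1 and PFKP to PFKL rise at 10X, ALDOC to ALDOA falls there, and LDHA to LDHB lies lower at both 0X and 10X than at 1X.

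Set directly against excess medium, cysteine-free medium had higher levels of 12 of the 17 enzymes and lower levels of 7 of the 13 other HIF targets tested. Of the 39 members tested, 28 passed, 14 higher and 14 lower in cysteine-free than in excess medium, where 48% of all genes passed (23.6% higher and 24.4% lower). With equal totals 10 members were higher and 16 lower. Another 3 enzymes were lower without cysteine, and the median of all 17 was 0.25 on the log2 scale. The median of the HIF targets was -0.25, and 0 of them were higher by limma, edgeR or DESeq2, with 0 also at an unadjusted p under 0.05. The libraries did not overlap in 16 members higher and 16 lower, against 33.1% and 32.9% of all genes, and all 13 mitochondrial mRNAs were higher without cysteine (median 7.37), whose part in these results was not tested. Equal totals gave medians of 0.17 for the enzymes and -0.33 for the targets. The largest differences were in PFKL (1.19 ± 0.043 on the log2 scale, SE, limma adjusted p = 2.2e-17) and ENO2 (-1.06 ± 0.058, SE, limma adjusted p = 8.45e-14), which lie on opposite sides. ALDOC followed with 0.94 ± 0.099 (SE, limma adjusted p = 1.2e-08). KDM3A, NDRG1 and ANKRD37 were lower in cysteine-free than in excess medium by 0.78, 0.70 and 0.69 on the log2 scale. VEGFA differed by -0.27 ± 0.041 (SE, limma adjusted p = 3.6e-06), LDHA by 0.34 (limma adjusted p = 1.1e-08) and PGAM1 by 0.15 (limma adjusted p = 1.1e-03), so these 3 were further from complete medium in excess. For PGAM1 that difference was lost with equal totals (0.07, adjusted p = 0.079). EPAS1 was lower in cysteine-free than in excess medium (log2 fold change -0.32 ± 0.063, SE, limma adjusted p = 1.1e-04; 0.012 without cysteine-free replicate 2).

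The other genes of both pathways were read from lists of genes outside the 40. Of 36 further genes of glycolysis and gluconeogenesis that were tested, 2 rose and 5 fell in cysteine-free medium (5.56% and 13.9%, against 7.39% and 8.51% of all genes), and 6 rose and 15 fell in excess (16.7% and 41.7%, against 23.1% and 22.9%). Their medians were -0.09 and -0.15 on the log2 scale. PCK2, the mitochondrial enzyme that makes phosphoenolpyruvate from oxaloacetate, changed most in cysteine-free medium, with 7046 ± 28.8 normalized counts against 1765 ± 181 in complete medium (log2 fold change 2.00 ± 0.080, SE, limma adjusted p = 3.9e-09). In excess it stood at 3422 ± 193. TIGAR, a phosphatase that lowers fructose 2,6-bisphosphate, went in opposite directions, with 970.4 ± 64.4 in cysteine-free, 1538 ± 203 in complete and 2421 ± 25.8 in excess medium, and the cysteine-free and excess libraries differed by -1.32 ± 0.053 (SE, limma adjusted p = 1.8e-16). Its fall from complete to cysteine-free medium (limma adjusted p = 6.3e-04) did not pass without cysteine-free replicate 1 or 2 (0.012 and 0.030). PDP2, the phosphatase that reopens pyruvate dehydrogenase, fell in cysteine-free medium by 0.63 on the log2 scale (limma adjusted p = 1.8e-03; 0.042 and 0.036 without cysteine-free replicate 1 or 2, and 0.011 and 0.012 without complete replicate 1 or 2), and the insulin-responsive transporter SLC2A4 fell in excess by 1.34 (limma adjusted p = 2.6e-07). LDHD, the D-lactate dehydrogenase, was higher in cysteine-free than in excess medium (113 ± 1.88 against 36.1 ± 3.83, log2 fold change 1.62, limma adjusted p = 6.9e-07). PGAM4, a copy of PGAM1 that can share its reads, fell in excess by 0.97, and PGAM2, which rose there by 1.00, lies wholly inside exons of other genes on the opposite strand, so neither level is certain.

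Of 16 other regulators of HIF that were tested, 8 rose and 6 fell in excess medium (50% and 37.5%, against 23.1% and 22.9% of all genes). In cysteine-free medium 1 rose and 4 fell (6.25% and 25.0%, against 7.39% and 8.51%). HSP90AA1, the chaperone that stabilizes HIF1A protein, fell to 60184 ± 1014 normalized counts in cysteine-free and 45459 ± 948 in excess medium from 88402 ± 4218.5 in complete medium (log2 fold changes -0.55 and -0.96, limma adjusted p = 4.4e-06 and 9.7e-13). VHL, the substrate receptor that recognizes hydroxylated HIF, rose in excess from 6558 ± 494 to 11061.5 ± 239 (log2 fold change 0.76 ± 0.048, SE, limma adjusted p = 8.1e-10), and the coactivator CREBBP from 6168 ± 469.9 to 10259 ± 297 (0.74 ± 0.049, SE, limma adjusted p = 1.4e-09). In cysteine-free medium ELOC, a subunit of the VHL ligase, and EGLN2, another HIF prolyl hydroxylase, fell by 0.37 and 0.33 on the log2 scale (limma adjusted p = 9.8e-04 and 4.3e-03). Both calls were lost without either cysteine-free library (limma adjusted p of 0.023 and 0.034 without replicate 1, and 0.025 and 0.083 without replicate 2), and that of EGLN2 also without complete replicate 1 or 2 (0.015 and 0.013). VHL shares 23.5% of its exon bases with a gene on the other strand, and EGLN2 shares 30.6% with genes on its own strand. The part of shared reads in their changes was not tested. SIAH2, a ligase for the hydroxylases, was lower and RBX1, the RING subunit of the VHL ligase, higher in cysteine-free than in excess medium (log2 fold changes -0.64 and 0.53).

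Of 51 other genes that hypoxia is known to induce, 8 rose and 10 fell in cysteine-free medium (15.7% and 19.6%, against 7.39% and 8.51% of all genes), and 22 rose and 14 fell in excess (43.1% and 27.5%, against 23.1% and 22.9%). Their medians were -0.09 and 0.09 on the log2 scale. DDIT4 (REDD1), an inhibitor of mTORC1, had 6985 ± 12.6 normalized counts in cysteine-free against 1729 ± 101 in complete medium (log2 fold change 2.02 ± 0.066, SE, limma adjusted p = 1.4e-09). NDUFA4L2, a subunit-like protein of the respiratory chain, went from 49.3 ± 17.7 to 228 ± 6.41 (2.26 ± 0.29, SE, limma adjusted p = 9.5e-05), and the lipoprotein receptor VLDLR from 392 ± 54.5 to 1161 ± 23.0 (1.57 ± 0.12, SE, limma adjusted p = 1.0e-06). In excess medium, heme oxygenase HMOX1 rose from 389 ± 40.3 to 2664 ± 184 (2.78 ± 0.075, SE, limma adjusted p = 1.8e-14) and the AP-1 member FOSL2 from 208 ± 32.2 to 860.4 ± 45.9 (2.06 ± 0.10, SE, limma adjusted p = 3.5e-11). The metallothionein MT1X fell there from 134 ± 47.9 to 21.9 ± 6.86 (-2.52 ± 0.27, SE, limma adjusted p = 5.2e-07). Cysteine-free medium had more MT1X and MT2A than excess medium, by 3.95 ± 0.25 and 3.099 ± 0.20 on the log2 scale (SE, limma adjusted p = 8.0e-13 and 2.4e-12).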

How the data were processed

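The authors mapped reads to GRCh38 (STAR 2.7.10b), counted them per Ensembl gene and divided each count by the DESeq2 size factor of its library; the deposited table holds this signal, called normalized counts here. The methods name featureCounts, with reads on several genes left out, and the submitters' processing notes HTSeq; the strand setting is not given in the sources used here. In each library 100% of values were whole multiples of 1 step (tolerance 0.001), from which read counts were recovered.

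Of 78894 gene IDs, 61463 were in GENCODE release 44. Genes with 10 or more in at least 3 of 10 libraries were kept (29045). Log2(value + 1) was fitted with limma 3.58.1 (lmFit, eBayes with a trend) in R 4.3.3, two-sided, with only the groups compared, Benjamini-Hochberg adjustment over all genes kept, and calls at 0.01. Fold changes are on the log2(value + 1) scale. The members and lists were chosen with earlier results of these data known. Values per library are printed for HIF subunits and for members called with an absolute log2 fold change of 0.8 or more and a mean of 100 or more; of other lists, the 3 largest called changes per comparison are named. Levels between genes were divided by exon length. Promoters are RefSeq windows from 250 bases before to 50 after a start, found for 36 of 40 members. Alternatives were a pseudocount of 10, no filter, a minimum of 50 in 3 libraries, equal totals, all groups in 1 fit, a block for the replicate number, count tests by edgeR 4.0.16 (quasi-likelihood, TMM) and DESeq2 1.42.0 on recovered reads, an adjusted p of 0.05, and leaving out each library. The block used only replicate numbers present in both groups. Same-numbered libraries showed no sign of pairing, which does not exclude it.
The steps were tested on simulated data.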

Additional observations from a re-analysis of the deposited data

How the results depend on the processing

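No member that was called changed direction under any alternative. With every library kept, PFKM lost its call in cysteine-free against complete medium; P4HA1, HK1, ALDOA, GAPDH, PDK3, HIF1A and ARNT did so in excess against complete medium, and 8 members in cysteine-free against excess medium (PFKFB3, BHLHE40, HK1, PGAM1, PFKFB4, ARNT, SLC2A3 and EGLN1). An adjusted p of 0.05 called 7987 genes in place of 4618 in cysteine-free against complete medium. Restricting to the 15 members without shared exon bases left 7, 12 and 11 called in the 3 comparisons, which have fewer genes by construction. Equal totals moved the medians in excess against complete medium to -0.50 (enzymes) and 0.37 (HIF targets), and in cysteine-free against excess medium to 0.17 and -0.33; the share of called genes that were higher went from 46.4% to 52.3% in cysteine-free against complete and from 49.2% to 40.01% in cysteine-free against excess medium. Leaving out 1 library at a time gave between 978 and 6300 genes called and between 5 and 21 members in cysteine-free against complete medium, 11958 to 13691 and 26 to 31 in excess against complete medium, and 11593 to 13334 and 21 to 28 in cysteine-free against excess medium. The fewest genes in the first comparison came without cysteine-free replicate 2 (978), cysteine-free replicate 1 (1198), complete replicate 2 (2795) and complete replicate 1 (2968). Where a cysteine-free library is left out, the other is assumed to vary like the second group. The median of the HIF targets then lay between 0.24 and 0.32 in excess against complete medium and between -0.26 and -0.20 in cysteine-free against excess medium. Taking the replicate number as a block kept only the numbers found in both media. Against cysteine-free medium it thus left out the complete or excess libraries whose number has no cysteine-free library. It gave 6518 genes and 19 members in cysteine-free against complete medium, and 32 members in excess against complete medium. In cysteine-free against excess medium its medians were 0.30 (enzymes) and -0.22 (HIF targets). The effect of the block was not separated from that of the libraries left out. Deviations of same-numbered libraries correlated between -0.028 and 0.039. This gave no sign that the numbers pair the libraries but cannot exclude it, because libraries with different numbers were not compared. All called members, 16, 31 and 28 in the 3 comparisons, also had no overlap between libraries, a check chosen after seeing the data. Summing members with their annotated copies turned no direction. Named genes outside the 40 kept their direction; 33 of 782 values no longer passed, and those that touch a printed call stand beside it. The cause of these shifts was not tested. No alternative varied the depth.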

Other observations

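Several members share bases or reads with other annotated genes, which limits how far their own level is known. EGLN1 shares 55.8% of its exon bases, ALDOA 54.2%, ANKRD37 40.3%, CA9 35.7%, LDHB 33.4% and GAPDH 17.6%, and 15 of the 39 members tested share none. The gene that overlaps CA9 on the opposite strand, ARHGEF39, had 1904 normalized counts in complete medium while CA9 had 0 reads. Annotated copies of PGAM1 held reads equal to 10.9% of its own, copies of BNIP3 5.70% and copies of TPI1 3.096%. The PGAM1 copies together fell with the gene, by 0.60 on the log2 scale in cysteine-free and 0.96 in excess medium, and the gene with its copies fell by 0.74 and 0.91.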
